A study of Homo sapiens with 12 samples.

Results

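CDYL, MAN1A2, ASAP1 and DEK each gave rise to circular RNAs in AC16 cells and in the exosomes of these cells, and the circles are described here beside the mRNAs of the same genes. The circles are all those listed within the span of the 4 genes and on their strand, which came to 24 of the 5700 circles listed in the 12 libraries: 10 of the 939 listed in exosomes and 23 of the 5179 listed in cells. MAN1A2 held 5 of them, ASAP1 9, DEK 9 and CDYL 1. The 4 host genes were chosen by their back-splice junction reads in these libraries, so junction levels, ranks and the contrast of exosomes with cells in junction reads are descriptions and carry no test. The gene reads of the hosts, and the contrast of Ang with Con, were not used to choose them and were tested over all genes or all circles. AC16, an established human line, comes from a fusion of ventricular cardiomyocytes and transformed fibroblasts. Exosomes are small secreted vesicles. The 4 groups were exosomes labelled Ang, exosomes labelled Con, whole cells labelled Ang and whole cells labelled Con, with 3 libraries each. All came from the same line. The labels do not spell out Ang or Con, give no dose or time, and name no other allele or agent. The stated aim of the series concerns RNAs in exosomes of hypertrophic heart muscle cells and the proteins that bind them.

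A circular RNA forms when the spliceosome joins the end of an exon to the start of the same or an earlier exon of the same transcript. It has no free end, resists exonucleases and often outlasts its linear mRNA, and long flanking introns with inverted repeats are known to favour its formation. Only reads that cross the back-splice junction tell a circle from its mRNA. The 4 hosts have unrelated roles. CDYL is a corepressor with a chromodomain that reads methylated histones. MAN1A2 is a Golgi mannosidase that trims N-glycans. ASAP1 is a GTPase-activating protein of ARF proteins that acts at focal adhesions. DEK is an abundant protein of chromatin that also takes part in splicing and was found as the partner of a leukaemic fusion.

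The libraries held 535442 to 587783 gene reads in Ang exosomes, 717263 to 745311 in Con exosomes, 9202471 to 10623090 in Ang cells and 9442962 to 11212674 in Con cells. Junction reads of all circles, scaled to 1000000 gene reads of the library (written JPM from here on), came to 1651 to 1871 JPM in Ang exosomes, 1624 to 1867 JPM in Con exosomes, 689.7 to 757.7 JPM in Ang cells and 708.9 to 717.3 JPM in Con cells. Within a group no pair of libraries agreed within sampling noise (chi-square over degrees of freedom 7.61 to 8.1 for exosomes, 24.2 to 25.8 for cells), so each was counted as its own library. Nothing in the labels says that they came from separate cultures. The p-values therefore rest on a spread between libraries that may be technical. RNA of exosomes and of cells was extracted and made into libraries with different kits, so compartment and kit cannot be told apart in any contrast of exosomes with cells. Fewer cells or vesicles of a kind and less RNA in each cannot be told apart either. Replicate 3 of Ang exosomes stands apart for CDYL mRNA, with 5 gene reads against 45 to 94 in the other exosome libraries, and fold changes of CDYL mRNA that involve exosomes are given with and without it. The label of a cardiac line was checked against 16 cardiomyocyte markers. Marker levels are in CPM, counts scaled to 1000000 gene reads with trimmed mean factors found within each compartment. Of the 16 cardiomyocyte markers, 3 were listed in exosomes (summed level 25.1 to 65.2 CPM) and 11 in cells (110.0 to 130.1 CPM). TNNT2, ACTC1 and NKX2-5 stayed below 1 CPM in cells and were not listed in exosomes. GATA4 had group means of 30.7 to 35.4 CPM in exosomes and 26.1 to 29.1 CPM in cells. TTN had 10.1 to 10.4 CPM in exosomes and 78.0 to 80.1 CPM in cells, and ACTN2 had 3.66 to 8.62 CPM in exosomes and 2.49 to 2.89 CPM in cells. PLN, at 2.73 to 3.58 CPM in cells, was not listed in exosomes. MYH6, MYL7, MYL4, TNNI1 and TBX5 were not listed in either. All 11 fibroblast and stromal markers were listed in both, with summed levels of 7323 to 8652 CPM in exosomes and 8390 to 10120 CPM in cells. Summed levels of immune markers were 3.59 to 171.4 CPM in exosomes and 13.7 to 71.2 CPM in cells, and those of endothelial markers 0 to 10.8 CPM in exosomes and 13.0 to 16.1 CPM in cells. Blood and serum markers summed to 0 CPM in all Ang exosome libraries, to 0 to 39.0 CPM in Con exosomes (HBA1, HBA2 and HBB) and to at most 0.217 CPM in cells. The part of these other cell types in the results was not tested.

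Back-splice junctions of CDYL exon 2, the 5 MAN1A2 circles and DEK exons 3 to 9 are shown. Those of the ASAP1 circles are not reported here. The end of the last exon is in lower case and the start of the first exon in capitals. The change of case thus marks the point of circle closure. Sequences are those of GENCODE release 29 transcripts on GRCh38, 5′ to 3′ on the strand of the gene, with 30 bases from each side. They were chosen because the junction is what the counted reads must cross, and because the 5 MAN1A2 circles share 1 side of it.
CDYL exon 2, chr6:4891713-4892379, plus strand: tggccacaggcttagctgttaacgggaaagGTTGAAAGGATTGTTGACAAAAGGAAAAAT
MAN1A2 exons 2 to 3, chr1:117402186-117405645, plus strand: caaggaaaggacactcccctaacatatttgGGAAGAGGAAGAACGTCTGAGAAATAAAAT
MAN1A2 exons 2 to 4, chr1:117402186-117414831, plus strand: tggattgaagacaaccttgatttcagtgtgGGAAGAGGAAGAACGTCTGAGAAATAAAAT
MAN1A2 exons 2 to 5, chr1:117402186-117420649, plus strand: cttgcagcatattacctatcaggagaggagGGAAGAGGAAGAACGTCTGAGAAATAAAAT
MAN1A2 exons 2 to 6, chr1:117402186-117442325, plus strand: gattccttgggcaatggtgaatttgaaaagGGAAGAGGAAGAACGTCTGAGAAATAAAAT
MAN1A2 exons 2 to 8, chr1:117402186-117466427, plus strand: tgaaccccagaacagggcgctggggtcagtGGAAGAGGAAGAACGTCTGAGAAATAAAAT
DEK exons 3 to 9, chr6:18236452-18258405, minus strand: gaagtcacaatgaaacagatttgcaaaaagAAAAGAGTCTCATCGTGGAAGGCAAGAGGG

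All 5 MAN1A2 circles opened with the same 30 bases of exon 2 and closed from 5 different exon ends. Both ends of each of these 7 circles lie in coding sequence of the annotated transcript. Both ends of a circle fell on annotated exon ends for 20 of the 24 circles (83.3%), against 3362 of all 5700 circles (59.0%). These 20 had a median spliced length of 483.5 bases and a median of 4 exons, and the 3170 circles of the series that could be placed on 1 transcript had 553 bases and 4 exons. The circle started at exon 2 for 6 of the 20, against 28.8% of all placed circles. In these features, then, the members stood close to circles in general, apart from the share with annotated ends. By rule the members lie within a gene on its strand, and the 5700 circles were not so restricted. The 2 shares with annotated ends are therefore not like for like.

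CDYL (ENSG00000153046) lies on chromosome 6 from 4706159 to 4955551 on the plus strand of GRCh38. Its single circle was exon 2 of 7, a circle of 1 exon with 667 bases and 54.1% G and C. The introns on its sides were the longest of those flanking the main circle of each host, 114905 bases upstream and 43135 bases downstream, against medians of 8426 and 8019 bases over all placed circles. MAN1A2 (ENSG00000198162) lies on chromosome 1 from 117367449 to 117528872 on the plus strand. Its circles ran from exon 2 of 13 to the end of exon 3, 4, 5, 6 or 8, with 353, 472, 553, 648 and 866 bases and 39.7% to 42.0% G and C. They share the upstream intron of 33700 bases, and the intron downstream had 9067, 5737, 21581, 18163 and 26719 bases in the same order. ASAP1 (ENSG00000153317) lies on chromosome 8 from 130052104 to 130443660 on the minus strand. Its main circle held exons 9 to 14 of 31 (550 bases, 130152736 to 130180880), next to a circle of exons 11 to 14 with the same last exon (334 bases, 130152736 to 130169067) and a circle of exons 3 to 4 (229 bases, 130358017 to 130361771). DEK (ENSG00000124795) lies on chromosome 6 from 18223868 to 18264823 on the minus strand. Its main circle held exons 3 to 9 of 11 (902 bases, 37.0% G and C) between introns of 5437 and 10209 bases, and 3 minor circles also began at exon 3 and ended in exon 5, 7 or 8. No exon of the 4 hosts shares a base with an exon of another annotated gene on either strand. CDYL and MAN1A2 each have an annotated pseudogene (CDYLP1 and MAN1A2P1), with which gene reads may be shared. In the ASAP1 span, 1 further circle with 2 reads in 1 library of Ang cells lies on the other strand and was left out.

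**Figure D1:**
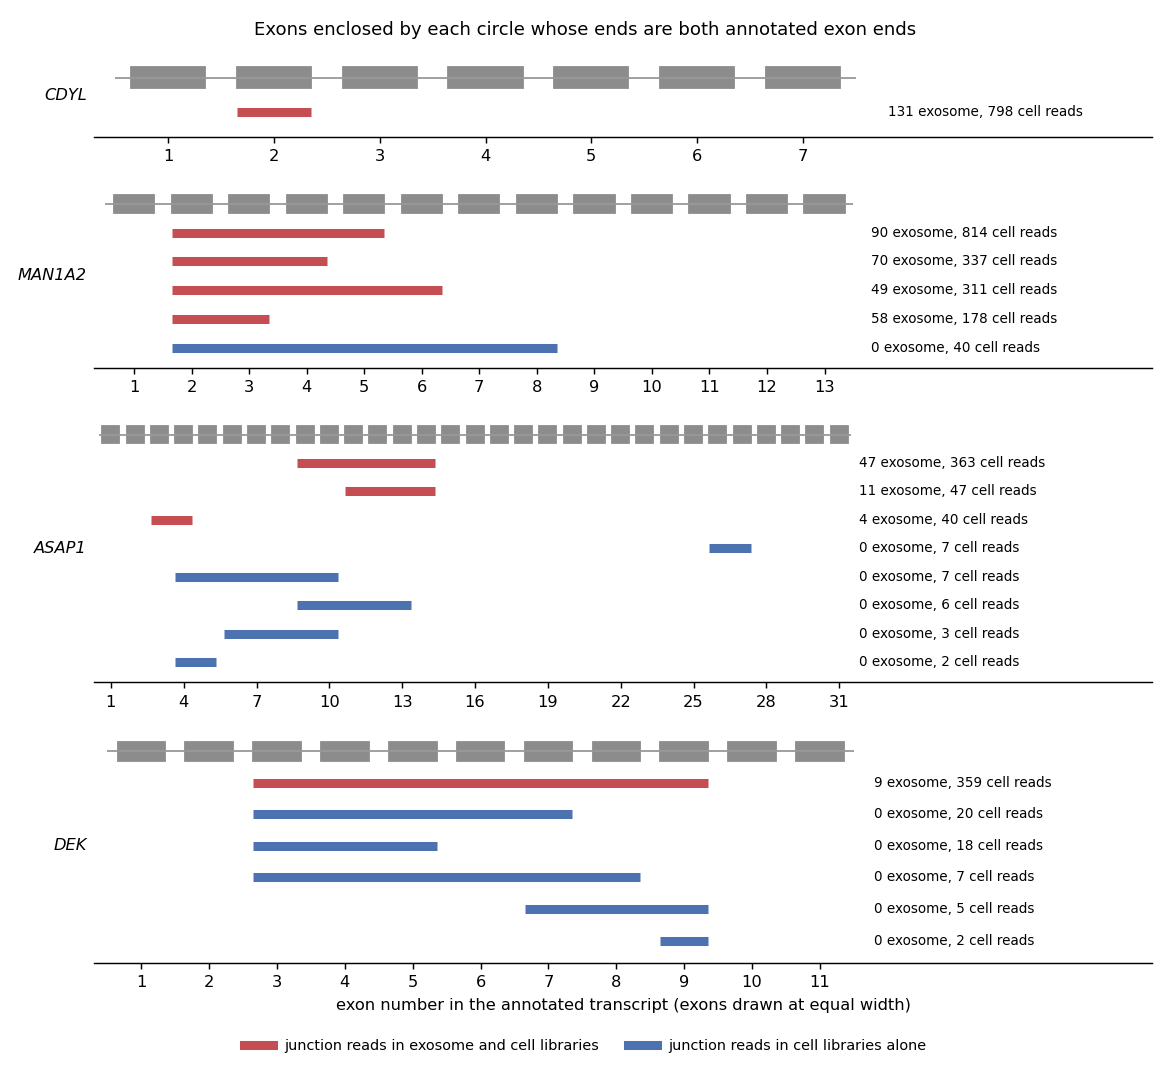
Exons enclosed by the 20 circles whose ends are both annotated exon ends, by exon number in the annotated transcript of each host (grey boxes, equal widths), with summed junction reads over 6 exosome and 6 cell libraries at the right; a circle not listed in exosomes is drawn with 0. The 5 MAN1A2 bars all begin at exon 2, and 4 of the 6 DEK bars begin at exon 3.

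The circles of the 4 hosts took 481 of the 6768 junction reads in exosomes (7.11%) and 3431 of the 43450 in cells (7.90%). By summed junction reads, MAN1A2 ranked first of 689 host genes in exosomes and first of 2431 in cells. CDYL ranked 3 in both, ASAP1 ranked 7 in exosomes and 6 in cells, and DEK ranked 46 in exosomes and 7 in cells. Of the 24 circles, 9 were listed in both compartments, 11 were above 0 in at least 6 libraries, 8 were above 0 in 1 library and 3 were above 0 in all 12. These 3 were CDYL exon 2 and MAN1A2 exons 2 to 4 and 2 to 5, among 5 such circles in the whole series. No nonzero junction count in these libraries is below 2, so a listed 0 can stand for 0 or 1 read.

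The CDYL circle had 35, 28 and 7 junction reads in Ang exosomes, 32, 12 and 17 in Con exosomes, 132, 130 and 172 in Ang cells and 98, 123 and 143 in Con cells. It was the most read circle of all in exosomes and the second in cells. Scaled to depth it stood at 34.4 ± 19.9 JPM in exosomes and 13.2 ± 1.94 JPM in cells (SD, n = 6 in each compartment). Exosome libraries spread from 13.1 to 63.1 and overlapped the cell libraries, which lay between 10.4 and 16.2. Pooled over libraries the ratio of exosomes to cells was 2.55, and that of all circles together was 2.42 (1744 against 719.9 JPM). The ratio of the CDYL circle lay close to that of circles in general.

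MAN1A2 had 29, 62 and 40 junction reads in Ang exosomes, 28, 72 and 36 in Con exosomes, 267, 277 and 301 in Ang cells and 240, 236 and 359 in Con cells, summed over its circles. Scaled to depth these sums were 69.6 ± 27.5 JPM in exosomes and 27.7 ± 2.75 JPM in cells (SD, 6 libraries each), and all exosome libraries (37.6 to 105.5) lay above all cell libraries (24.3 to 32.0). All circles together were likewise apart, with 1624 to 1871 JPM in exosomes and 689.7 to 757.7 JPM in cells. The share of other hosts with such a gap was not counted. The pooled ratio of 2.47 again lay close to the 2.42 of all circles.

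Within MAN1A2, the circle of exons 2 to 5 was the most read in both compartments. It had 8, 33 and 7 reads in Ang exosomes, 14, 17 and 11 in Con exosomes, 127, 145 and 127 in Ang cells and 113, 133 and 169 in Con cells. Exons 2 to 4 had 7, 9 and 13 reads in Ang exosomes, 8, 24 and 9 in Con exosomes, 57, 50 and 64 in Ang cells and 45, 52 and 69 in Con cells. Both of these were seen in every library. Exons 2 to 3, the shortest circle, had 0, 10 and 15 reads in Ang exosomes, 6, 27 and 0 in Con exosomes, 26, 17 and 35 in Ang cells and 23, 28 and 49 in Con cells. Exons 2 to 6 had 14, 10 and 5 reads in Ang exosomes, 0, 4 and 16 in Con exosomes, 49, 58 and 65 in Ang cells and 55, 20 and 64 in Con cells. In exosomes these shorter and longer forms were at 0 in some libraries and led in others, while in cells each was present throughout. A form with exons 2 to 8 had 8, 7 and 10 reads in Ang cells and 4, 3 and 8 in Con cells and was not listed in exosomes, where its cell rate would give 2.57 reads over all 6 libraries. This form took 0 of 267 MAN1A2 junction reads in exosomes (exact Clopper-Pearson 95% interval 0% to 1.37%). In cells it took 40 of 1680 (2.38%, interval 1.71% to 3.23%). These intervals cover counting error only, and the difference was not tested.

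The circle of exons 2 to 5 made up 33.8% ± 14.6 of the MAN1A2 junction reads of an exosome library and 48.8% ± 4.92 of those of a cell library (SD, 6 libraries each). Its share ranged from 17.5% to 53.2% in exosomes and from 42.2% to 56.4% in cells, so that the groups overlapped. Exons 2 to 3 took 18.8% ± 16.9 in exosomes and 10.4% ± 2.59 in cells, and exons 2 to 4 took 26.3% ± 6.90 in exosomes and 20.1% ± 1.64 in cells. Exons 2 to 6 took 21.2% ± 20.3 in exosomes and 18.4% ± 5.21 in cells. Exosome libraries thus varied more in their mix of forms, with 28 to 72 junction reads each against 236 to 359 in a cell library. With so few reads the share of 1 library is loose: 33 of 62 reads for exons 2 to 5 in replicate 2 of Ang exosomes is 53.2%, with an exact Clopper-Pearson 95% interval of 40.1% to 66.0% that covers counting error only. The mean spliced length of a counted MAN1A2 circle was 514.2 ± 54.2 bases in exosomes and 540.6 ± 10.5 bases in cells, and the exosome libraries (456.3 to 579.3) enclosed the cell libraries (523.5 to 553.9). Pooled ratios of exosomes to cells were 5.07 for exons 2 to 3 (3.35 without replicate 2 of Con exosomes, which held 27 of its 58 reads), 3.23 for exons 2 to 4, 1.72 for exons 2 to 5 and 2.45 for exons 2 to 6.

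**Figure D2:**
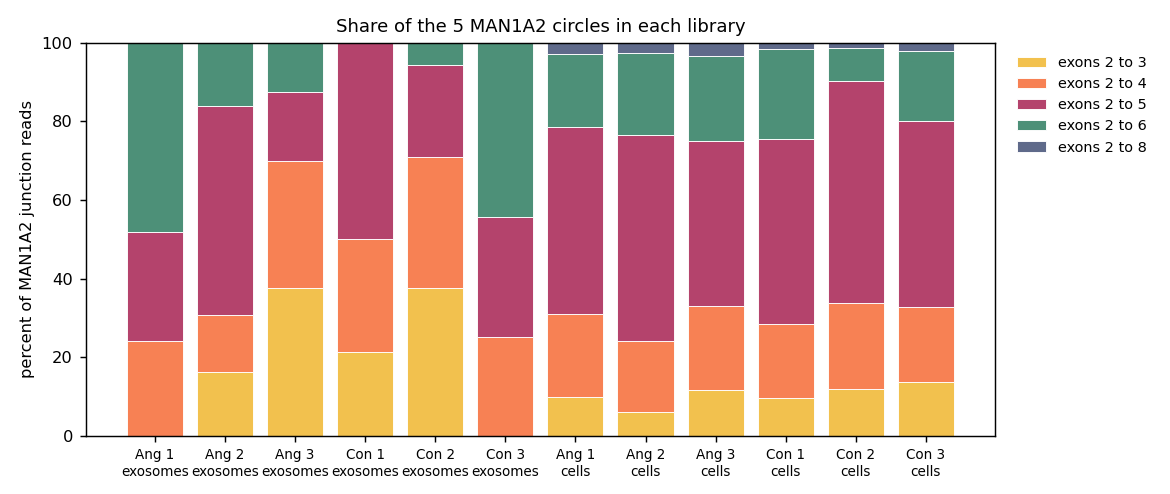
Share of each of the 5 MAN1A2 circles among the MAN1A2 junction reads of a library (percent, stacked), for exosome libraries on the left and cell libraries on the right. The share of exons 2 to 5 spans 17.5% to 53.2% in exosomes and 42.2% to 56.4% in cells, and exons 2 to 3 is at 0 in 2 exosome libraries.

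ASAP1 had 11, 4 and 12 junction reads in Ang exosomes, 13, 10 and 12 in Con exosomes, 73, 60 and 80 in Ang cells and 93, 61 and 110 in Con cells. Scaled to depth these were 16.1 ± 5.46 JPM in exosomes and 7.89 ± 1.68 JPM in cells (SD, 6 libraries each), and replicate 2 of Ang exosomes (6.81) fell within the range of the cells (5.90 to 9.85). The main circle, exons 9 to 14, had 0, 4 and 8 reads in Ang exosomes, 13, 10 and 12 in Con exosomes, 66, 45 and 52 in Ang cells and 68, 41 and 91 in Con cells. In all 3 Con exosome libraries it was the only ASAP1 circle listed above 0. The circle of exons 11 to 14 was seen in exosomes in replicate 1 of Ang alone, with 11 reads, in the library where the main circle was at 0. It had 5, 5 and 9 reads in Ang cells and 13, 6 and 9 in Con cells. Exons 3 to 4 had 4 reads in 1 Ang exosome library, 2, 6 and 7 in Ang cells and 12, 9 and 4 in Con cells. The other 6 ASAP1 circles were listed in cells alone, with 2 to 7 reads over the 6 cell libraries. They were a minor set of other exon pairings, and 1 of them had an end off the annotation.

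DEK differed from the other hosts in the direction of its junction reads. It had 0, 0 and 0 junction reads in Ang exosomes, 0, 9 and 12 in Con exosomes, 105, 66 and 117 in Ang cells and 56, 66 and 66 in Con cells. Scaled to depth these were 4.82 ± 7.60 JPM in exosomes and 7.92 ± 2.57 JPM in cells (SD, 6 libraries each), with 4 exosome libraries at 0 and the other two, at 12.2 and 16.7, above every cell library (5.89 to 11.4). Pooled over libraries, 21 reads were counted in exosomes where the rate of the cells would give 30.6, a ratio of 0.686. Leaving out replicate 3 of Con exosomes gave 0.361 and leaving out replicate 2 of Con exosomes gave 0.484, so the ratio rested on these libraries. The circle of exons 3 to 9 had 9 reads in exosomes, all in replicate 2 of Con exosomes, where the cell rate would give 23.1. Ang cells held 78, 45 and 89 of its reads, and Con cells 36, 57 and 54. The remaining 12 exosome reads belonged to a circle from 18237462 to 18255851 that was seen in replicate 3 of Con exosomes alone and has 1 end off the annotated exons. A circle from 18237381 to 18249701, also with 1 unannotated end, had 14, 4 and 12 reads in Ang cells and 15, 6 and 5 in Con cells. The other 6 DEK circles were listed in cells alone, with 2 to 20 reads over the 6 libraries.

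**Figure D3:**
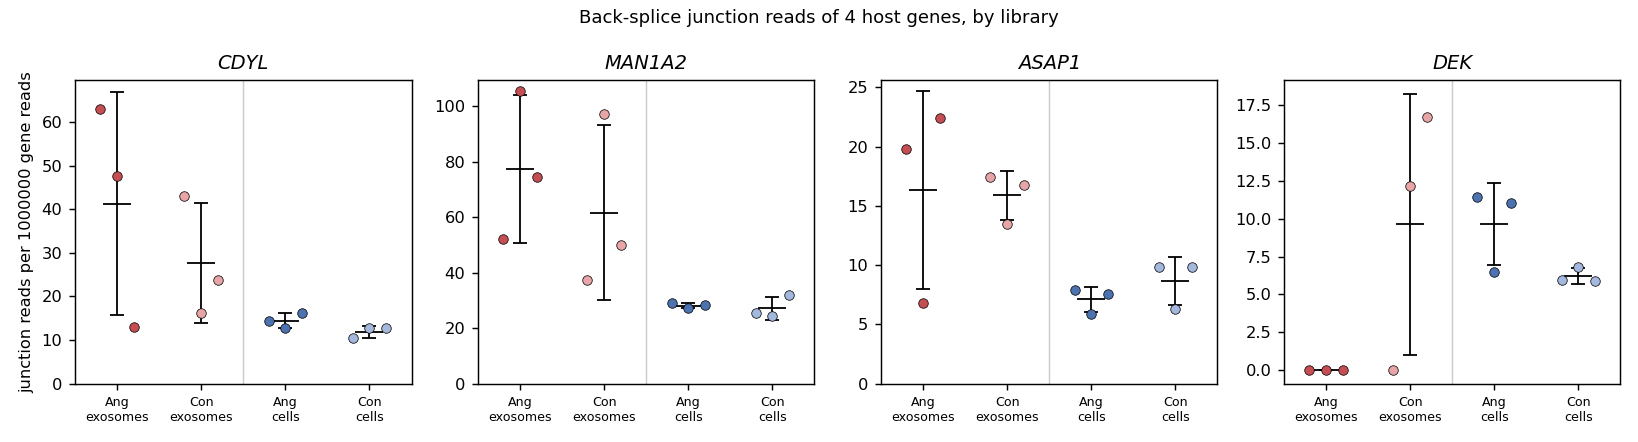
Back-splice junction reads per 1000000 gene reads (JPM) of each host, summed over its circles, in each library (points) with the mean and SD of the 3 libraries of a group (bars). Vertical scales differ between hosts. For MAN1A2 all exosome libraries (37.6 to 105.5) lie above all cell libraries (24.3 to 32.0), and for DEK 4 exosome libraries lie at 0. All circles together are likewise apart (1624 to 1871 JPM in exosomes, 689.7 to 757.7 JPM in cells).

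The mRNAs of the hosts were compared between exosomes and cells in gene reads, which may include circular as well as linear fragments of a gene. Of the 4 hosts 3 were higher in exosomes and 0 were lower with edgeR, the quasi-likelihood F test with Benjamini-Hochberg adjustment. Over all 11811 genes tested 17.6% were higher and 19.5% lower, and 37.1% passed in either direction. Levels from here on are in CPM with trimmed mean factors over all 12 libraries, unlike those of the markers above.

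DEK mRNA had 691.0 to 926.1 CPM in exosomes (median 775.0) and 320.2 to 492.5 CPM in cells (median 361.4). All exosome libraries lay above all cell libraries, as for 9.97% of all genes tested, and DEK was the only one of the 4 hosts of which this held. It was 2.05-fold higher in exosomes (log2 1.04, SE 0.126, edgeR adjusted p = 5.198e-05; means 785.3 ± 89.9 CPM in exosomes and 385.2 ± 70.3 CPM in cells, SD, n = 6 each). The mRNA of DEK was thus higher in exosome libraries, also with raw library totals (log2 0.82, edgeR adjusted p = 0.000313). Its summed junction reads, scaled to raw gene reads, had a pooled ratio of exosomes to cells of 0.686, against 2.42 for all circles. That ratio rested on 21 exosome reads in replicates 2 and 3 of Con exosomes, both of which lay above every cell library. The difference between mRNA and junction reads was not tested.

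ASAP1 mRNA had 320.1 to 551.6 CPM in exosomes (median 397.6) and 145.7 to 322.4 CPM in cells (median 278.0). The groups touched only where the lowest exosome library lay under the highest cell library. It was 1.58-fold higher in exosomes (log2 0.66, SE 0.180, edgeR adjusted p = 0.0128). The call was lost with raw library totals in place of the scaling (log2 0.44, adjusted p = 0.0658).

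MAN1A2 mRNA had 79.3 to 285.7 CPM in exosomes (median 223.4) and 99.8 to 139.4 CPM in cells (median 114.2). Replicate 1 of Ang exosomes lay below every cell library, and replicate 1 of Con exosomes lay among them. It was 1.71-fold higher in exosomes (log2 0.77, SE 0.255, edgeR adjusted p = 0.031). This call was lost with raw library totals (log2 0.56, adjusted p = 0.0961). It was also lost in 6 of the 12 fits that left out 1 library (adjusted p 0.0555 to 0.0869), namely without replicate 2 or 3 of Ang exosomes, replicate 2 or 3 of Con exosomes, replicate 2 of Ang cells or replicate 1 of Con cells.

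CDYL mRNA had 149.0, 82.5 and 9.99 CPM in Ang exosomes, 134.9, 130.4 and 119.8 CPM in Con exosomes, 90.2, 79.2 and 95.5 CPM in Ang cells and 84.7, 88.1 and 87.2 CPM in Con cells. Exosome libraries spread to either side of the cells, and replicate 3 of Ang exosomes lay far below all others. The difference between exosomes and cells did not pass (log2 0.22, SE 0.361, edgeR adjusted p = 0.653). It passed without replicate 3 of Ang exosomes (log2 0.48, edgeR adjusted p = 0.0376) and turned negative without replicate 1 of Ang exosomes (log2 -0.17). The median log2 fold change over all genes was -0.15 with the trimmed mean scaling and -0.36 with raw totals, and relative to that median the hosts stood at 0.37 for CDYL, 0.92 for MAN1A2, 0.80 for ASAP1 and 1.18 for DEK under the trimmed mean scaling. Under raw totals these 4 values were 0.37, 0.92, 0.80 and 1.18 as well.

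**Figure D4:**
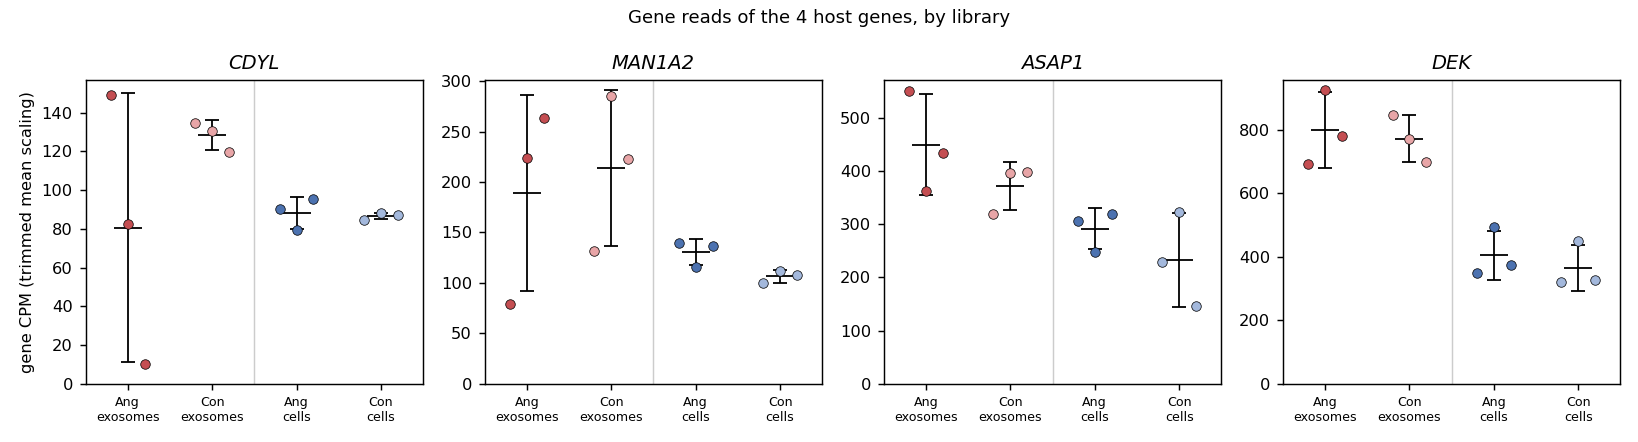
Gene reads of each host in CPM (trimmed mean scaling over 12 libraries) in each library (points), with the mean and SD of the 3 libraries of a group (bars). DEK exosome libraries (691.0 to 926.1) lie above all DEK cell libraries (320.2 to 492.5), and replicate 3 of Ang exosomes stands at 9.99 for CDYL.

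Between genes, levels were compared per kilobase of exon. DEK mRNA stood at 180.1 ± 20.6 CPM per kilobase in exosomes and 88.3 ± 16.1 in cells (SD over 6 libraries each, as for the next 3). ASAP1 stood at 49.6 ± 9.54 in exosomes and 31.7 ± 8.35 in cells. CDYL was at 23.1 ± 11.4 in exosomes and 19.3 ± 1.20 in cells, and MAN1A2 at 20.8 ± 8.23 in exosomes and 12.3 ± 1.66 in cells. The order was the same in exosomes and cells. In exosomes CDYL and MAN1A2 overlapped, and in cells all 4 hosts were apart except that the lowest ASAP1 library (17.6) fell into the range of CDYL (17.5 to 21.1). Among the 11927 genes with a length, the percentile of DEK was 98.4 in exosomes and 97.3 in cells, and that of MAN1A2 was 82.2 in exosomes and 69.9 in cells.

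Junction reads per 1000 gene reads of the same host relate circle to mRNA within a library, where depth cancels. CDYL had 454.5, 622.2 and 1400.0 in Ang exosomes, 340.4, 134.8 and 212.5 in Con exosomes, 149.3, 150.8 and 159.4 in Ang cells and 114.9, 134.0 and 137.1 in Con cells. The highest value is that of replicate 3 of Ang exosomes, with 7 junction reads beside 5 gene reads, so junction reads are not all contained in the gene reads. The mean was 527.4 ± 461.3 in exosomes and 140.9 ± 15.8 in cells (SD, 6 libraries each). Without replicate 3 of Ang exosomes the exosome mean was 352.9. Pooled reads gave 335.9 in exosomes and 141.5 in cells. All circles over all gene reads likewise stood higher in exosomes (1744 against 719.9 JPM, a ratio of 2.42). A higher value in exosomes was therefore not particular to CDYL, nor to MAN1A2 and ASAP1 below.

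MAN1A2 had 707.3, 508.2 and 303.0 junction reads per 1000 gene reads in Ang exosomes, 304.3, 369.2 and 241.6 in Con exosomes, 195.5, 219.1 and 194.3 in Ang cells and 238.8, 202.1 and 278.5 in Con cells. Replicate 3 of Con exosomes and replicate 3 of Con cells overlapped, and the means were 405.6 ± 173.5 in exosomes and 221.4 ± 32.7 in cells (SD, 6 libraries each). With the most read circle alone they were 138.6 in exosomes and 107.8 in cells. ASAP1 had 42.4 ± 13.9 in exosomes and 31.7 ± 17.2 in cells, and the libraries overlapped over most of their range (20.2 to 58.3 in exosomes, 18.2 to 63.1 in cells). DEK had 7.14 ± 11.4 in exosomes, from 0 to 25.8, and 19.9 ± 7.54 in cells, from 12.3 to 30.8. Without replicate 3 of Con exosomes the exosome mean of DEK was 3.42. To set hosts side by side, junction reads were divided by gene reads per kilobase of exon. This ratio was 3.92 ± 1.68 for MAN1A2 in exosomes and 2.14 ± 0.316 in cells. CDYL had 2.39 ± 2.09 in exosomes and 0.639 ± 0.0717 in cells, and ASAP1 0.351 ± 0.115 in exosomes and 0.263 ± 0.143 in cells. DEK had 0.0312 ± 0.0497 in exosomes and 0.0866 ± 0.0329 in cells. By these means the hosts ran in the opposite order to their mRNA levels in both compartments, with MAN1A2 at the top and DEK at the bottom. The mRNA level is the divisor of this ratio, and the hosts were chosen by junction reads, so this order is partly built in. In exosomes MAN1A2 (2.34 to 6.84) and CDYL (0.611 to 6.34) overlapped. In cells MAN1A2 (1.88 to 2.69) and CDYL (0.521 to 0.722) did not overlap with each other, CDYL met the highest ASAP1 library (0.150 to 0.523), and ASAP1 and DEK did not overlap.

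**Figure D5:**
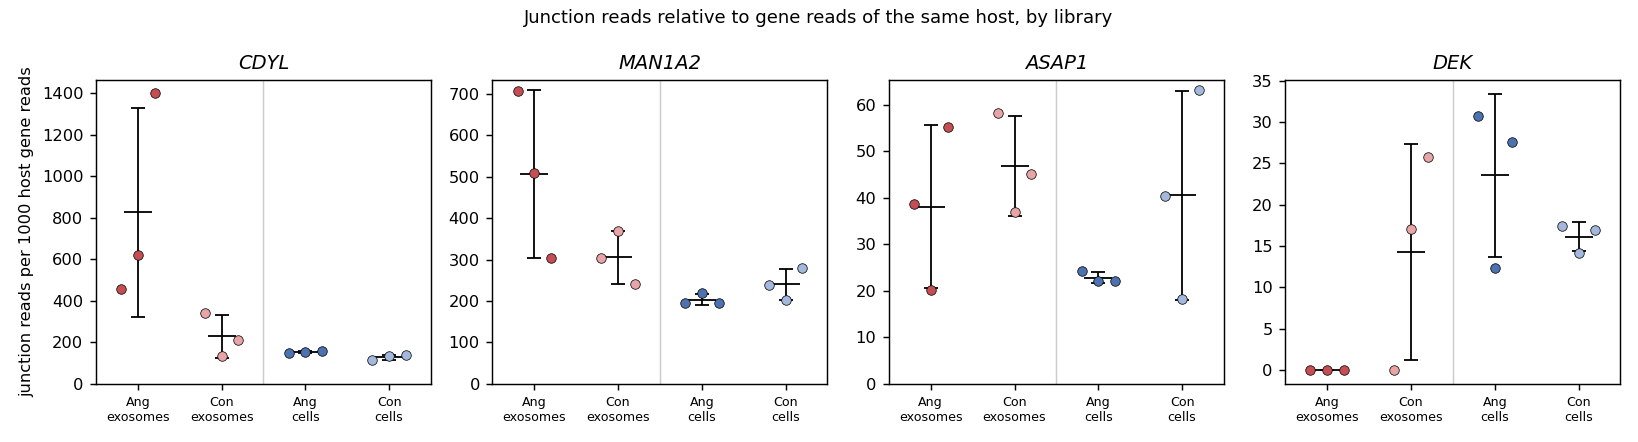
Junction reads per 1000 gene reads of the same host in each library (points), with the mean and SD of the 3 libraries of a group (bars), on a separate vertical scale for each host. CDYL reaches 1400.0 in replicate 3 of Ang exosomes, where it had 7 junction reads and 5 gene reads, and DEK is at 0 in 4 exosome libraries.

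Ang was compared with Con to find which host mRNAs differed with the label within each compartment. In exosomes 0 of the 4 hosts passed with edgeR, against 1 of 8327 genes tested (0.012%), with 316 genes at an unadjusted p under 0.05 and 16 passing with DESeq2, none of them a host. The log2 fold changes were -0.67 for CDYL (SE 0.726), -0.17 for MAN1A2 (SE 0.455), 0.28 for ASAP1 (SE 0.199) and 0.06 for DEK (SE 0.146), with edgeR adjusted p = 0.9994 for each. The CDYL value rested on single libraries: it was -0.14 without replicate 3 of Ang exosomes and -1.46 without replicate 1 of Ang exosomes. No host had Ang and Con exosomes apart without overlap, as 10.7% of all genes did.

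In cells 0 of the 4 hosts passed with edgeR, against 0 of 13331 genes (0.0%), with 816 genes at an unadjusted p under 0.05 and 60 passing with DESeq2, none of them a host. MAN1A2 mRNA had 139.4, 116.2 and 137.0 CPM in Ang cells and 99.8, 112.1 and 107.7 CPM in Con cells. These groups did not overlap, as for 13.7% of all genes, and MAN1A2 was the only one of the 4 hosts with such a gap (log2 0.29, SE 0.093, edgeR adjusted p = 0.795). The other 3 overlapped, with log2 fold changes of 0.32 for ASAP1 (SE 0.297), 0.14 for DEK (SE 0.194) and 0.02 for CDYL (SE 0.0832). The difference of Ang from Con was also compared between exosomes and cells, and 0 of the 4 hosts differed with edgeR, against 3 of 11811 genes (0.0254%), with 971 at an unadjusted p under 0.05 and 368 passing with DESeq2, none of them a host. These interaction estimates lay between -0.70 for CDYL (SE 0.723) and -0.06 for ASAP1 (SE 0.358). That of CDYL was -0.18 without replicate 3 of Ang exosomes and -1.49 without replicate 1 of Ang exosomes.

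The circles were compared between Ang and Con in the same way. In exosomes 6 of the 24 circles had enough junction reads to be tested, and 0 passed with edgeR, against 0 of 39 circles (0.0%), with 3 at an unadjusted p under 0.05 and 3 passing with DESeq2, none of them a member. Log2 fold changes lay between -1.07 for ASAP1 exons 9 to 14 (SE 1.77) and 0.61 for MAN1A2 exons 2 to 6 (SE 1.72), and CDYL exon 2 had 0.34 (SE 0.607). With SEs of 0.607 to 1.77, only very large differences could have been detected in these libraries. No member had Ang and Con exosomes apart without overlap, as 10.3% of the circles tested did.

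In cells 13 of the 24 circles were tested and 0 passed with edgeR, against 0 of 676 circles (0.0%), with 28 at an unadjusted p under 0.05 and 0 passing with DESeq2. The adjusted p was 0.9988 for each. The most read circles had the smallest errors: log2 0.03 for MAN1A2 exons 2 to 5 (SE 0.219), 0.33 for CDYL exon 2 (SE 0.221), -0.19 for ASAP1 exons 9 to 14 (SE 0.287) and 0.61 for DEK exons 3 to 9 (SE 0.289). Of the 13 circles, 9 had a positive fold change, against 54.9% of all circles tested. The groups did not overlap for 2 of the 13, against 10.2% of all circles tested. For CDYL exon 2 the Ang cells had 14.34, 12.79 and 16.19 JPM and the Con cells 10.38, 12.67 and 12.75 JPM, so that the gap between the groups was narrow. The other was DEK exons 3 to 5, with 7, 3 and 5 reads in Ang cells and 0, 0 and 3 in Con cells. Its unscaled reads meet at 3, and the groups were apart only after scaling to depth, with 0.295 to 0.761 JPM in Ang cells and 0 to 0.268 JPM in Con cells.

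Summing the circles of a host gave more reads per library, and Ang was compared with Con for 4 hosts in 2 compartments by exact two-sided permutation tests, which cannot go below 0.1 with 3 libraries against 3. CDYL in cells reached that smallest value, with 14.4 ± 1.70 JPM in Ang cells and 11.9 ± 1.35 JPM in Con cells (SD, 3 libraries each, exact permutation p = 0.1, adjusted 0.667 over the 8 comparisons). DEK in cells stood at 9.64 ± 2.73 JPM in Ang and 6.21 ± 0.515 JPM in Con (exact permutation p = 0.2), with replicate 2 of Ang cells among the Con libraries. MAN1A2 and ASAP1 in cells, and all 4 hosts in exosomes, gave an exact permutation p between 0.3 and 1.0. For DEK in exosomes the sums were 0 in all 3 Ang libraries and 9.63 ± 8.65 JPM in Con (exact permutation p = 0.4), and no fold is given against groups at 0.

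The other genes known to work with the hosts were taken as lists and described in gene reads, exosomes against cells, beside a median log2 fold change of -0.15 over all genes. The lists were drawn up with earlier results of these data known. Of 20 tested partners of DEK in chromatin and splicing, 10 were higher and 3 lower in exosomes with edgeR, against 17.6% and 19.5% of all genes, with a median log2 fold change of 0.42. ANP32B, an acidic histone chaperone, had 9178 ± 687.5 CPM in exosomes and 519.2 ± 76.3 CPM in cells (SD, n = 6 each; log2 4.15, SE 0.0996). NCL, which encodes nucleolin, had 6812 ± 1283 CPM in exosomes and 1561 ± 124.0 CPM in cells (log2 2.13, SE 0.113). SET, another acidic histone chaperone, had 2117 ± 235.6 CPM in exosomes and 764.2 ± 19.7 CPM in cells (log2 1.48, SE 0.0796), and ANP32E, a chaperone of a variant histone, was also higher (log2 0.94, SE 0.126). ANP32B, NCL and SET have annotated processed copies, so their reads may be shared with these.

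Of 15 tested genes of Golgi N-glycan trimming and branching, the pathway of MAN1A2, 1 was higher and 6 were lower in exosomes with edgeR, against 17.6% of all genes higher and 19.5% lower (median log2 -0.87). MAN1A1, the closest paralog of MAN1A2 and like it a Golgi mannosidase of the first trimming step, was the higher one, with 89.7 ± 22.7 CPM in exosomes and 33.7 ± 8.47 CPM in cells (log2 1.41, SE 0.224). Among the lower ones were MAN2A1, the mannosidase of the next trimming step (88.6 ± 23.6 CPM in exosomes, 203.4 ± 4.27 CPM in cells, log2 -1.20, SE 0.173), the endoplasmic reticulum glucosidase MOGS (log2 -2.10, SE 0.362) and the sialyltransferase ST6GAL1 (log2 -1.38, SE 0.248). Of the other class I mannosidases in the list, MAN1B1 was lower (44.4 ± 28.1 CPM in exosomes, 81.4 ± 8.72 CPM in cells, log2 -0.99, SE 0.327), and MAN1C1 did not pass (log2 -0.35, SE 0.709, edgeR adjusted p = 0.725).

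Of 23 tested ARF cycle and focal adhesion partners of ASAP1, 6 were higher and 4 lower in exosomes with edgeR (median log2 0.25). These are 26.1% and 17.4% of the list, near the 17.6% and 19.5% of all genes. The 2 paralogs of ASAP1 went apart: ASAP3 was higher (139.5 ± 43.5 CPM in exosomes, 58.8 ± 21.7 CPM in cells, log2 1.24, SE 0.256) and ASAP2 lower (100.4 ± 23.1 CPM in exosomes, 172.6 ± 18.6 CPM in cells, log2 -0.78, SE 0.170). The adhesion scaffold PXN, which encodes paxillin, was higher (log2 1.21, SE 0.237), and CTTN, which encodes the actin regulator cortactin, was lower (log2 -0.54, SE 0.0825), as was the adaptor CRKL (log2 -1.63, SE 0.308). Of 14 tested partners of CDYL in repressive chromatin, 2 were higher and 3 lower (median log2 -0.36), or 14.3% and 21.4% of the list, near the 17.6% and 19.5% of all genes. The histone methyltransferases EHMT2 (221.6 ± 32.0 CPM in exosomes, 115.2 ± 9.82 CPM in cells, log2 0.95, SE 0.124) and EHMT1 (log2 1.20, SE 0.279), which form a complex with CDYL, were the higher ones. The demethylase KDM1A (log2 -1.90, SE 0.398) and the Polycomb subunit SUZ12 (log2 -1.10, SE 0.212) were lower.

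Of 24 tested genes of circle formation and decay, 1 was higher and 13 were lower in exosomes with edgeR, 4.17% and 54.2% of the list against 17.6% and 19.5% of all genes (median log2 -0.51). Those with the smallest p were the stress granule protein G3BP2 (104.5 ± 38.6 CPM in exosomes, 297.9 ± 5.95 CPM in cells, log2 -1.55, SE 0.180), the RNA-binding protein IGF2BP1 (4.60 ± 7.35 CPM in exosomes, 96.4 ± 51.9 CPM in cells), the spliceosome subunit SF3B1 (log2 -1.08, SE 0.163) and the Argonaute protein AGO2 (log2 -0.82, SE 0.132). Of 34 tested hosts of other well known circles, 5 were higher and 10 lower (median log2 -0.12), which is 14.7% and 29.4% of the list against 17.6% and 19.5% of all genes. With the smallest p were TTN, which encodes the sarcomere protein titin (11.0 ± 1.66 CPM in exosomes, 74.0 ± 4.39 CPM in cells, log2 -2.74, SE 0.188), ANKRD12 (log2 -2.20, SE 0.244), FBXW4 (log2 1.90, SE 0.287) and MBOAT2 (log2 -1.14, SE 0.181). Of the 37 such hosts, 31 had circles in these files, 23 with junction reads in exosomes and 31 in cells. UBAP2 had the most junction reads of them, 47 in exosomes and 315 in cells. In Ang against Con, 0 members of the 6 lists passed with edgeR in exosomes, in cells or in the comparison of both.

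The genes with the profile most like that of each host over the 12 libraries were found by the root mean square difference of log2 CPM after centring each gene, among 11811 genes. Nearest to CDYL were GADD45A (0.309), NUDCD2 (0.317) and TTF2 (0.338), against a median of 1.22 over all genes. Nearest to MAN1A2 were CDR2L (0.213), TMEM199 (0.260) and C8orf82 (0.262), against a median of 0.960. Among the nearest to ASAP1 were MICALL1 (0.233) and SCARB1 (0.248), against a median of 0.901. Among the nearest to DEK were EMD (0.154) and TOMM34 (0.163), against a median of 0.973. Of the genes named here, those beside DEK had the smallest distances and those beside CDYL the largest, and the CDYL profile holds the low value of replicate 3 of Ang exosomes. All these values share the libraries, the depth and the step between compartments, and they are a description.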

How the data were processed

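Gene reads and back-splice junction reads were deposited for 12 libraries, 3 in each of 4 groups. Per the file headers, the authors' values are whole-number counts of reads per Ensembl gene and per circle, not normalized. GRCh38, HISAT2 and StringTie are named in the submitters' processing notes, without versions or roles. For the circle caller, the counting step and the use of strand, the tool and setting were not given in the sources used here.

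Circles were placed within host genes by position and strand in GENCODE release 29, with coordinates counted from 1. Gene counts were tested with edgeR 4.0.16 in R 4.3.3, by its robust quasi-likelihood F test on counts scaled with TMM factors (trimmed mean). Genes were kept by filterByExpr (min.count 10, min.total.count 15). Circles were tested in the same way if they had at least 10 junction reads over 6 libraries and were above 0 in at least 3 of them. Tests were two-sided, with Benjamini-Hochberg adjustment over all features tested and a threshold of 0.05. SE is an approximate standard error, taken as the size of the log2 fold change divided by the square root of the F statistic. Exosomes were compared with cells, and the label change between them, over the 11940 genes listed in both, of which 11811 passed the filter. DESeq2 1.42.0, other scalings, no filter, a replicate block and leaving out each library were tried. Checks on simulated counts covered the gene tests of Ang against Con and of exosomes against cells, and the circle test in cells. The interaction and the circle test in exosomes were not checked in this way. Exosome libraries held at most 745311 gene reads and cell libraries at least 9202471, so exosome values carry the larger error.

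The host genes, the lists and the rules were chosen with earlier results of these data known. Named circles were those above 0 in at least 6 of 12 libraries, and otherwise up to 3 per host with the most reads in each compartment. Named list members were up to 4 with the smallest p in the contrast of exosomes with cells. Likeness used log2 CPM with a prior count of 2. Of the 3 nearest genes per host, 2 in all are not reported here. DEK exons 3 to 5, MAN1B1, MAN1C1, ASAP2 and UBAP2 fall outside these rules and were chosen after their values were seen.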

Additional observations from a re-analysis of the deposited data

How the results depend on the processing

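No host and no member circle passed in Ang against Con under any alternative run, namely DESeq2, other scalings or library sizes, no low-count filter, the replicate block, 1 fit of all 12 libraries and leaving out each library. DEK mRNA kept its call in exosomes against cells under all of them, ASAP1 in all but raw totals, and MAN1A2 lost it with raw totals and in 6 of 12 fits without 1 library, so that 1 host passed with raw totals. Junction counts limit the rest: an exosome library holds 0 to 72 junction reads of a host, and no count of 1 is listed.

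Counts of genes called in Ang against Con were 60 in cells with DESeq2 and 0 to 3 without 1 library, the 3 without replicate 3 of Con cells. In exosomes they were 16 with DESeq2, 3 with no filter, 22 in 1 fit of all libraries and 1 to 4 without 1 library, the 4 without replicate 1 of Ang exosomes. The interaction gave 368 with DESeq2 and 1 to 17 without 1 library, the 17 again without replicate 1 of Ang exosomes. Circles called were 3 with DESeq2 in exosomes, and 0 to 1 in exosomes and 0 to 1 in cells without 1 library. The cause was not tested.

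Same-numbered Ang and Con libraries did not deviate together (correlations -0.04 to -0.01), so the replicate number was not taken as a pairing. With the replicate block 0 genes were called in exosomes, 1 in the interaction and 3893 in exosomes against cells, and no host call changed.

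Pooled ratios of junction reads without each library were added after the data were seen. Those of CDYL, MAN1A2 and ASAP1 moved by under 1.5 times.

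Values that changed sign were all of log2 fold changes that had not passed. With gene-read library sizes, DESeq2 and no filter, MAN1A2 exons 2 to 5 in cells had -0.033, -0.025 and -0.0094, and MAN1A2 exons 2 to 3 in exosomes had 0.0093, 0.11 and 0.015. MAN1A2 exons 2 to 4 in exosomes had 0.047 with DESeq2. Summed junction reads in exosomes gave -0.054 unscaled for MAN1A2, and -0.00050 scaled to junction reads and -0.37 unscaled for ASAP1. Junction reads per 1000 gene reads of MAN1A2 were 138.6 in exosomes and 107.8 in cells with the most read circle alone. Without 1 library, mRNA log2 fold changes of Ang over Con ranged from -0.49 to 0.19 for MAN1A2 and -0.068 to 0.14 for DEK in exosomes, and from -0.039 to 0.088 for CDYL and -0.026 to 0.32 for DEK in cells. The interaction ranged from -0.36 to 0.20 for ASAP1 and -0.27 to 0.075 for DEK, and exosomes against cells from -0.17 to 0.48 for CDYL. Circles in exosomes ranged from -0.27 to 1.04 for CDYL, and for MAN1A2 from -1.26 to 1.80 (exons 2 to 3), -0.84 to 0.47 (exons 2 to 4) and -0.39 to 0.54 (exons 2 to 5). Circles in cells ranged from -0.025 to 0.23 for MAN1A2 exons 2 to 4, -0.083 to 0.045 for exons 2 to 5 and -0.25 to 0.98 for the DEK circle from 18237381 to 18249701. Summed junction reads ranged from -0.26 to 0.41 for ASAP1 in exosomes and -0.026 to 0.18 for MAN1A2 in cells.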
